A study of Homo sapiens with 19 samples.

Results

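Knockdown of EZH2 was measured by RNA-seq in MDA-MB-231, an established human triple-negative breast cancer line, in 4 of the 19 libraries of the series. Cells were reverse transfected with siRNA and kept in non-adherent sphere medium for 48 h. They received either siEZH2 (n = 2) or a control siRNA, siNC (n = 2). All 4 libraries came from DMEM/F12 with B27 at 1 in 50, EGF at 20 ng/ml and FGF at 20 ng/ml, with no further treatment or genetic change given in the labels. The labels name neither the sequence nor the number of siRNAs behind siEZH2. The labels do not say whether the replicates were separate cultures of this single line. The p-values therefore rest on the spread between these libraries, modelled across genes, which may be technical. All 28870 genes listed in the table of this experiment were taken, and the 15823 with a mean of at least 10 normalized counts over the 4 libraries were tested. The other 13047 genes lay under that mean. Normalized counts are the authors' counts of reads per gene scaled by library, so levels are not corrected for gene length and were compared only within a gene.

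EZH2 is the catalytic subunit of Polycomb repressive complex 2 (PRC2), which places methyl groups on histone H3 at K27 and works with EED, SUZ12 and histone-binding subunits. The trimethyl mark is known for keeping developmental genes silent, and in breast cancer cells EZH2 is often abundant in aggressive and dividing tumours. EZH2 itself is a known target of the E2F factors and is made mostly in cycling cells. Sphere culture without attachment is used to select cells with tumour-initiating properties.

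Libraries held 27989577 and 38955312 reads for siEZH2 and 34296110 and 37557787 reads for siNC. Mitochondrial genes took 4.50% of the reads in both siEZH2 libraries and 4.45% and 4.93% in the siNC libraries. The line's own markers were present: VIM, a mesenchymal filament protein, had 108114 and 95880 normalized counts in siEZH2 and 84089 and 115456 in siNC. The estrogen receptor gene ESR1 had 2.49 and 6.33 in siEZH2 and 9.56 and 10.1 in siNC, and CDH1, the epithelial cadherin, was at most 1.91 in any library. Of 14 blood cell markers, 3 reached the filter, of which LYZ was called higher in siEZH2 by the test below (0.77), CD14 lower (−0.62) and CSF1R neither. LYZ lost its call without siNC replicate 2 (adjusted p = 0.156) and CD14 without siNC replicate 1 (0.451). The summed level of the list ran from 458 to 511 in siEZH2 and from 459 to 527 in siNC. PTPRC, the pan-leukocyte marker, lay between 5.43 and 7.47 in all 4 libraries. Of the fibroblast and endothelial markers, 7 of 13 were tested and none passed the test below, with a summed level of 1093 and 1354 in siEZH2 and 1226 and 1026 in siNC. RNA was taken from whole cultures, so fewer cells of a type and less RNA per cell cannot be told apart in any result that follows.

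EZH2 transcript had 275 and 278 normalized counts in the siEZH2 libraries, against 518 and 529 in the siNC libraries. Both siEZH2 libraries lay below both controls. EZH2 averaged 276 ± 1.89 in siEZH2 and 524 ± 7.89 in siNC (SD, n = 2 each). Its log2 fold change on the log2(normalized count + 1) scale, used for every fold change given here, was −0.92 ± 0.15 (SE; limma, Benjamini-Hochberg adjusted p = 6.28e-08). EZH2 RNA was thus lowered in part and not lost. SCIRT, the long non-coding RNA silenced in another experiment of the series and listed as RP5-1120P11.1, had 143 and 118 normalized counts in siEZH2 and 144 and 196 in siNC. Its log2 fold change was −0.37 ± 0.18 (adjusted p = 0.239), and its reads cannot be assigned to a strand.

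Genes were called at an adjusted p under 0.05 over all 15823 genes tested. siEZH2 spheres had 617 genes called higher than siNC, which is 3.9% of the genes tested, and 465 called lower, which is 2.94%, together 6.84%. These shares are the background for the counts of list members given here. Counts near them are not read as a change of a list. Changes were modest. The median size was 0.54 on the log2 scale among genes called higher and 0.59 among genes called lower, and the median over all genes was 0.01. At least a 2-fold change was reached by 93 of the genes called higher (0.588%) and 69 of those called lower (0.436%). Genes labelled protein-coding made up 596 of the calls above siNC and 407 of those below it. These calls, and the SE given for each gene, borrow the relation between level and spread across genes. That trend can outweigh a gene's own replicates. A fit without that trend called no gene (limma, smallest adjusted p = 0.0652, with 2471 genes at an unadjusted p under 0.05), while edgeR on whole reads called 581 higher and 500 lower and DESeq2 428 and 250. Leaving out siNC replicate 1 lowered the calls to 228 higher and 114 lower, and leaving out siNC replicate 2 to 327 and 181. Of the 129 genes that passed the test and are named by the rule given with the methods, 53 kept their call whichever library was left out.

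**Figure D1:**
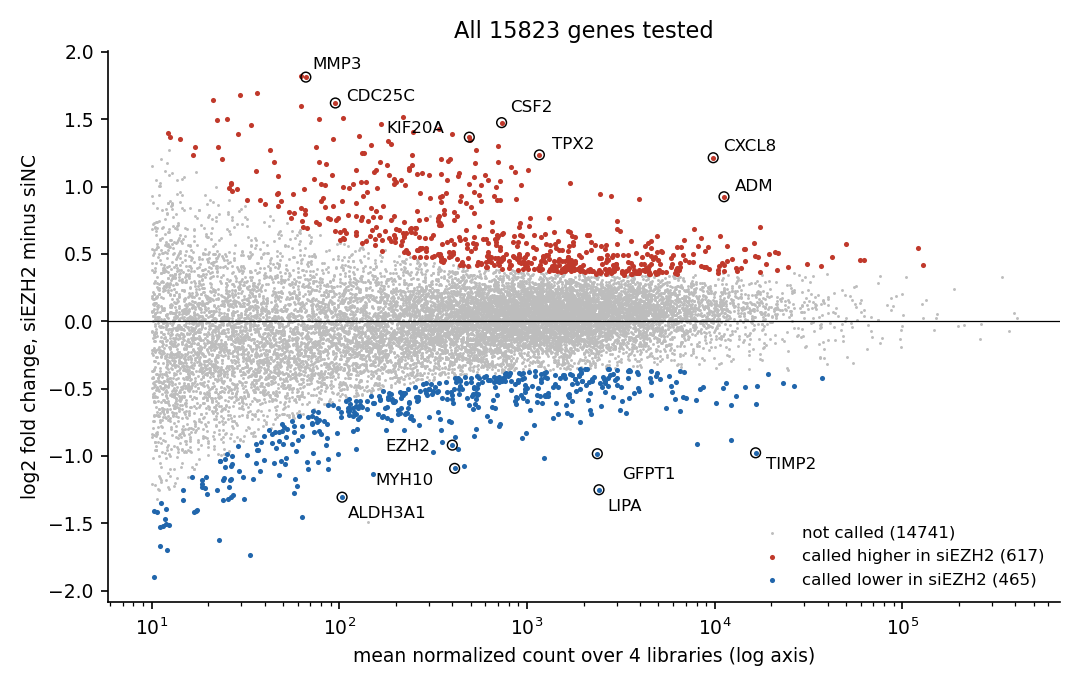
Log2 fold change (siEZH2 minus siNC) of the 15823 genes tested against their mean normalized count over 4 libraries on a log axis; red points are the 617 genes called higher in siEZH2, blue points the 465 called lower, grey points the rest. The circled genes are named in the text, with MMP3 highest among them at 1.81 and ALDH3A1 lowest at −1.31.

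The 15 largest rises among genes with a group mean of at least 100 were MMP3, CDC25C, DTL, MCM10, TAGLN3, CSF2, CDC25A, KIF4A, TTK, PRR11, KIAA0101, KIF20A, SKA3, SPAG5 and ZNF367. Most of them encode proteins of chromosome duplication and division, apart from the stromelysin MMP3, the cytokine CSF2 and TAGLN3, a calponin-family protein. The 15 largest falls were ALDH3A1, LIPA, SLC16A6, ATP8A2, MYH10, C1S, P2RY6, TM4SF19, B3GNT1, GFPT1, TIMP2, HCP5, CA14, DYNC2LI1 and EZH2 itself. Each of these 30 genes kept its call without any 1 library except TM4SF19, whose adjusted p was 0.147 without siNC replicate 2.

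**Figure D2:**
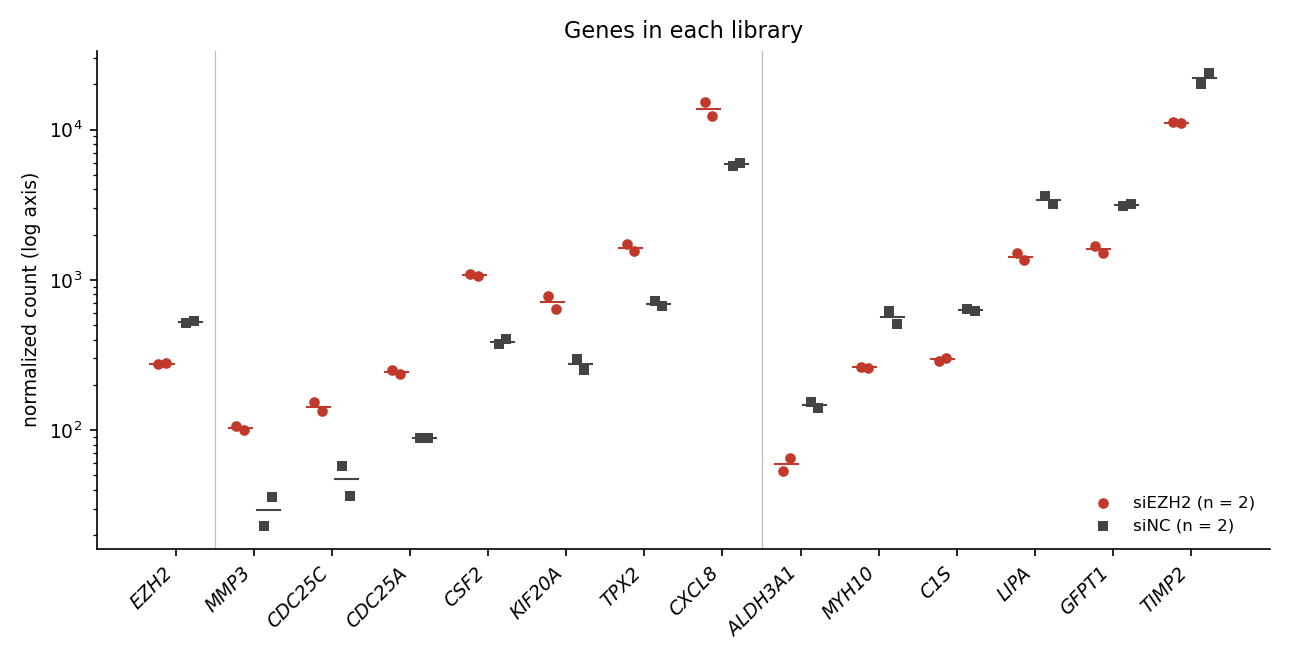
Normalized counts on a log axis of EZH2, of 7 genes called higher and of 6 called lower, in each siEZH2 library (red circles) and each siNC library (dark squares); short lines are group means (n = 2 each). In all of the genes drawn, the siEZH2 and siNC libraries do not overlap, which was a condition for naming genes by size or adjusted p.

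Genes of mitosis had the largest median change of the 44 lists examined, whose members were chosen with earlier results of these data known. Of 32 mitosis genes, all tested, 29 rose, 1 fell and 2 did not pass, and their median log2 fold change was 1.03, against 0.01 over all genes. A rise of at least 2-fold was called for 19 of them. The count of rises was 25 to 30 under the other settings, apart from the fit without the trend. TPX2, which targets Aurora A to the spindle, had 1724 and 1545 normalized counts in siEZH2, against 721 and 666 in siNC. Both siEZH2 libraries lay above both controls, and the log2 fold change was 1.23 ± 0.13 (adjusted p = 8.67e-19). KIF20A, a kinesin of the central spindle, had 778 and 643 in siEZH2, against 299 and 250 in siNC, a log2 fold change of 1.37 ± 0.14 (adjusted p = 2.06e-18). The phosphatase gene CDC25C, whose product activates CDK1 at mitotic entry, had 153 and 134 in siEZH2, against 57.4 and 36.7 in siNC, and rose by 1.62 ± 0.22.

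The proliferation marker MKI67 had 1406 and 1368 normalized counts in siEZH2, against 726 and 560 in siNC, with a log2 fold change of 1.12 ± 0.13 (adjusted p = 2.55e-15). The kinases rose alike: AURKA by 1.18 ± 0.13, TTK by 1.41 ± 0.17, CDK1 by 1.07 ± 0.14, BUB1 by 1.09 ± 0.16, AURKB by 1.05 ± 0.17 and PLK1 by 0.80 ± 0.15. TTK and CDK1 varied between the siEZH2 libraries, with 453 and 275 normalized counts for TTK in siEZH2 and 125 and 140 in siNC. The mitotic transcription factors FOXM1 (0.92 ± 0.15) and MYBL2 (1.03 ± 0.17) and the B-type cyclins CCNB1 (1.11 ± 0.13) and CCNB2 (1.10 ± 0.16) rose too. Among division genes outside the list, HJURP, the chaperone that loads the centromeric histone CENPA, had 1065 and 934 in siEZH2, against 382 and 428 in siNC (log2 fold change 1.30 ± 0.13). KIF4A, a chromosome-bound kinesin, had 561 and 438 in siEZH2, against 185 and 182 in siNC (1.43 ± 0.15). Against this direction, CDC25B, a relative of CDC25C, fell to 3943 and 4454 in siEZH2, against 5905 and 5206 in siNC (−0.40 ± 0.12, adjusted p = 0.0156), and did not pass without siEZH2 replicate 1 or siNC replicate 1. HMMR (0.74 ± 0.28) and ECT2 (0.27 ± 0.12) were the members that did not pass.

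**Figure D3:**
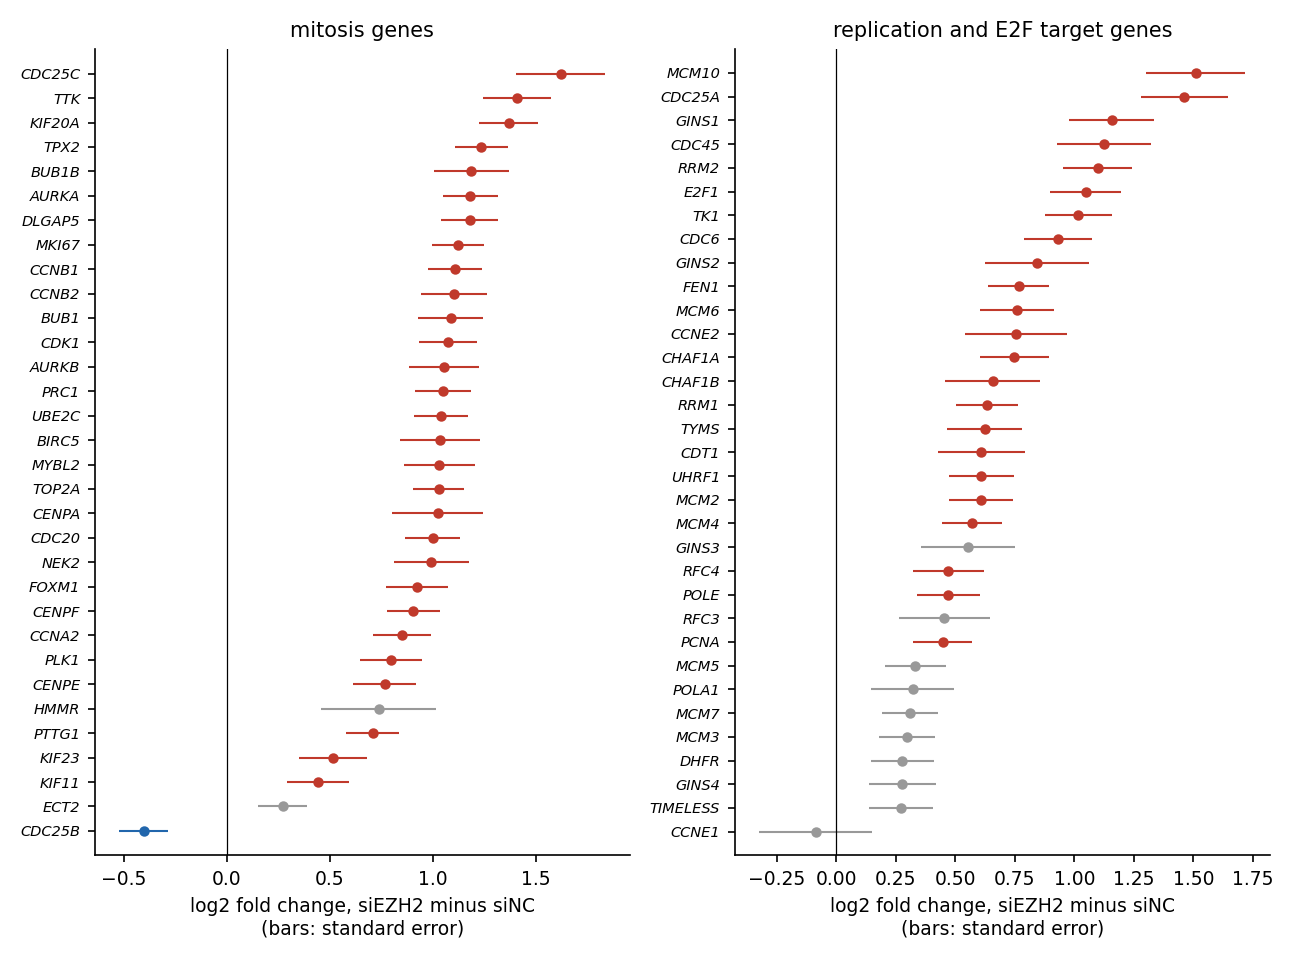
Log2 fold change (siEZH2 minus siNC) with its standard error for each of 32 mitosis genes (left) and 33 replication and E2F target genes (right); red marks genes called higher, blue called lower, grey not called. CDC25B alone falls among the mitosis genes, while CDC25C at 1.62 and MCM10 at 1.51 lead the panels.

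Promoters of mitotic genes commonly carry a cell cycle homology region, the CHR, beside CCAAT boxes, and the CHR is known as the binding element of the DREAM and MuvB complexes. RefSeq windows (GRCh38.p14) of 250 bases before to 50 bases after the start were matched for 26 of the 32 mitosis genes and 10654 of the 13219 protein-coding genes tested. The letters TTTGAA on either strand were in 57.7% of the mitosis windows (15 of 26) and CCAAT on either strand in 80.8% (21 of 26). For all protein-coding genes tested the shares were 9.87% and 36.3%, and for all 27305 RefSeq windows 15.4% and 35.7%. Among genes called higher, with 493 of 596 windows matched, the shares were 20.7% and 46.0%. Only 302 of the 407 protein-coding genes called lower had a window, under the 80% needed, so that check is void for them. The windows of DLGAP5, a spindle protein that rose by 1.18 ± 0.14 (877 and 593 in siEZH2, against 330 and 307 in siNC), and of MKI67 are shown because they were the most raised members whose matched window holds both motifs. Capitals mark TTTGAA and CCAAT on either strand, and a CHR and a CCAAT box share letters once in MKI67. The DLGAP5 window is chr14:55191536-55191835 and the MKI67 window chr10:128126374-128126673, both on the minus strand.
DLGAP5: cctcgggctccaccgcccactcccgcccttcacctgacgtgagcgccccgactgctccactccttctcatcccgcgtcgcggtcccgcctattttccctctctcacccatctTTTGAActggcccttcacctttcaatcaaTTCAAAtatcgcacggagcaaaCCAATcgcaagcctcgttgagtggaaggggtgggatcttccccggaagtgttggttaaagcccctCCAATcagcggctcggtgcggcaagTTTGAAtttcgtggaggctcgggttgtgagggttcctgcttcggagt
MKI67: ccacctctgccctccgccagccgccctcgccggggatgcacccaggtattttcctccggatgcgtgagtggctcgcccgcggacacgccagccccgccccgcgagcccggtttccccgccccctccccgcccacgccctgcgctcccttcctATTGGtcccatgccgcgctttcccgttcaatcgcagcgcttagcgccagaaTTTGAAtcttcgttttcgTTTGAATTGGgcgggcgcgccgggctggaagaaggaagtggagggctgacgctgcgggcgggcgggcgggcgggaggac

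Genes that copy DNA were the next group. Of 33 replication and E2F target genes, all tested, 23 rose and none fell, with a median log2 fold change of 0.61. The rises numbered 14 without siNC replicate 1. CDC25A, the phosphatase that drives entry into S phase, had 251 and 237 normalized counts in siEZH2, against 87.9 and 88.1 in siNC. The groups lay far apart relative to their spread, with a log2 fold change of 1.46 ± 0.18 (adjusted p = 1.05e-12). MCM10, which helps to start replication forks, had 170 and 141 in siEZH2, against 63.1 and 45.9 in siNC (1.51 ± 0.21, adjusted p = 1.55e-10). RRM2, the regulated subunit of ribonucleotide reductase, had 677 and 514 in siEZH2, against 244 and 310 in siNC (1.10 ± 0.14). Other origin and fork factors rose as well, among them CDC6 (0.93 ± 0.14), CDC45 (1.12 ± 0.20), GINS1 (1.16 ± 0.18), FEN1 (0.77 ± 0.13) and PCNA (0.45 ± 0.12). The helicase subunits MCM2, MCM4 and MCM6 rose by 0.61, 0.57 and 0.76, while MCM3, MCM5 and MCM7 did not pass the test. E2F1, a transcription factor of this program, had 533 and 474 in siEZH2, against 223 and 264 in siNC (1.05 ± 0.15, adjusted p = 6.08e-10). Outside the list, DTL, which directs the destruction of the licensing factor CDT1, had 347 and 297 in siEZH2, against 139 and 89.9 in siNC (1.52 ± 0.17). KIAA0101, the PCNA clamp-associated factor PCLAF, had 239 and 134 in siEZH2, against 72.7 and 64.2 in siNC (1.38 ± 0.20).

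An E2F motif, TTTGGCGC on either strand, was in 25% of the replication windows (7 of 28 matched), in 2.64% of the windows of genes called higher, in 1.09% of those of all protein-coding genes tested and in 0.659% of all RefSeq windows. CDC25A and GINS1, a subunit of the replicative helicase, were the most raised members that hold it, and their windows are shown with the motif in capitals. CDC25A is at chr3:48188368-48188667 on the minus strand and GINS1 at chr20:25407423-25407722 on the plus strand. In CDC25A the motif begins 44 bases before the start site.
CDC25A: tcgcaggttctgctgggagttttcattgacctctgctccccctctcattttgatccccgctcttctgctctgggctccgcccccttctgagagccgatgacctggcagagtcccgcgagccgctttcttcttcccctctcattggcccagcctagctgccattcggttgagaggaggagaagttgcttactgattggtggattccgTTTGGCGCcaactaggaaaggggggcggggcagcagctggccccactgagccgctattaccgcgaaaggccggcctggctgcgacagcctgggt
GINS1: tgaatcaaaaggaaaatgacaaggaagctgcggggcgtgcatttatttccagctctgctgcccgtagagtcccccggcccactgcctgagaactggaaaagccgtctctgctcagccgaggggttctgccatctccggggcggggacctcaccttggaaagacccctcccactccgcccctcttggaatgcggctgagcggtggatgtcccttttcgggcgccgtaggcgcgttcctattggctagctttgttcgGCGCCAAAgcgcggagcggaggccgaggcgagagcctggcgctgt

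Of 13 tested CDK inhibitors, retinoblastoma family members and D cyclins, CDK6 (0.44 ± 0.12) and CCND1 (0.43 ± 0.13) rose, both without an adjusted p under 0.05 when siNC replicate 1 was left out. CDKN1A, the p21 inhibitor, had 9344 and 9749 normalized counts in siEZH2, against 7866 and 10552 in siNC, so the groups overlapped. Among 19 tested p53 target genes, SESN2 alone rose (0.58 ± 0.13), with a list median of 0.01. CCNE1, a cyclin of S phase entry, had 57.2 and 58.8 in siEZH2, against 58.3 and 65.1 in siNC.

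Of 23 matrix proteases and inhibitors tested, 2 rose and 2 fell, with a list median of 0.01. MMP3, a stromelysin that cuts matrix proteins, had 107 and 99.5 normalized counts in siEZH2, against 22.9 and 35.8 in siNC, and showed the largest rise of any gene named by the rule (1.81 ± 0.25, adjusted p = 5.28e-11). MMP10, a second stromelysin, had 457 and 515 in siEZH2, against 185 and 238 in siNC (1.20 ± 0.15). In both, the siEZH2 libraries stood above the controls. TIMP2, an inhibitor of metalloproteinases, fell to 11220 and 10992 in siEZH2, against 20197 and 23652 in siNC (−0.98 ± 0.12, adjusted p = 2.3e-12). LOXL4, a collagen-crosslinking oxidase, fell to 8301 and 8785 in siEZH2, against 14215 and 17375 in siNC (−0.88 ± 0.12).

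CSF2, which encodes the cytokine GM-CSF, had 1090 and 1064 normalized counts in siEZH2, against 372 and 403 in siNC. The gap was wide next to the replicate spread, and CSF2 had the smallest adjusted p of all genes (4.48e-24, log2 fold change 1.47 ± 0.13). CXCL8, a neutrophil chemoattractant listed as IL8, had 15271 and 12218 in siEZH2, against 5749 and 6033 in siNC (1.21 ± 0.12, adjusted p = 7.34e-20). Of 30 tested NF-kappaB and cytokine genes, 9 rose and none fell, with a median of 0.23, and the rises numbered 7 to 9 under the other settings, apart from the fit without the trend. The others that rose were PTGS2, the inducible prostaglandin synthase (3916 and 3425 in siEZH2, against 1819 and 2022 in siNC, 0.93 ± 0.12), the feedback inhibitor TNFAIP3 (0.91 ± 0.12), IL1B (0.93 ± 0.13), IL1A (0.64 ± 0.13), TRAF1 (0.60 ± 0.12), CXCL2 (0.55 ± 0.13) and CXCL3 (0.60 ± 0.15). CXCL2 and CXCL3 are near-identical copies between which reads may be split. The list did not move as a whole: CXCL1, a further gene of that cluster, had 2999 and 3252 in siEZH2, against 3502 and 2640 in siNC, and the adhesion gene ICAM1 20727 and 23729 in siEZH2, against 24075 and 25154 in siNC. The transcript of the NF-kappaB subunit RELA was 5252 and 5664 in siEZH2 and 4959 and 5690 in siNC.

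A loose NF-kappaB motif, GGGA and CC with 4 bases of any kind between them, was on either strand in 66.7% of the windows of the NF-kappaB and cytokine list (16 of 24 matched), 31.6% of those of genes called higher, 31.0% of those of all protein-coding genes tested and 25.1% of all RefSeq windows. The CSF2 window, chr5:132073539-132073838 on the plus strand, is shown as that of the most raised member, with the match in capitals, beginning 85 bases before the start site.
CSF2: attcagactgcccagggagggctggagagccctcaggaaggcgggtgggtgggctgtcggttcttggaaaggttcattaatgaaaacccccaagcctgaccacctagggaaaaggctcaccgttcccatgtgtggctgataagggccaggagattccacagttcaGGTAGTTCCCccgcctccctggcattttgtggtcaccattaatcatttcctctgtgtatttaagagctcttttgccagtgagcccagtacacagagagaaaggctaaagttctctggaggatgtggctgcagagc

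Several falls were in genes outside the lists. LIPA, the lysosomal acid lipase, fell to 1507 and 1352 normalized counts in siEZH2, against 3622 and 3190 in siNC (−1.25 ± 0.12, adjusted p = 1.37e-21). LAPTM4A, a lysosomal membrane protein, fell to 5950 and 5214 in siEZH2, against 10268 and 10682 in siNC (−0.91 ± 0.12). The lysosome and autophagy list as a whole held none that passed in either direction among 29 tested, and its median was 0.04. CTSD, a lysosomal protease, had 43369 and 49637 in siEZH2, against 49062 and 51103 in siNC. GFPT1, the first enzyme of the hexosamine pathway, fell to 1685 and 1501 in siEZH2, against 3114 and 3177 in siNC (−0.98 ± 0.12, adjusted p = 1.8e-13). B3GNT1, an older symbol of the glycosyltransferase B4GAT1, fell to 816 and 819 in siEZH2, against 1681 and 1627 in siNC (−1.02 ± 0.13).

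MYH10, the heavy chain of non-muscle myosin IIB, fell to 263 and 261 normalized counts in siEZH2, against 616 and 507 in siNC (−1.09 ± 0.15, adjusted p = 3.01e-11). C1S, a protease of the complement cascade, fell to 290 and 304 in siEZH2, against 639 and 617 in siNC (−1.08 ± 0.14). The aldehyde dehydrogenase ALDH3A1 had 53.5 and 65.1 in siEZH2, against 154 and 141 in siNC (−1.31 ± 0.21). In each of these the siEZH2 libraries agreed closely and lay below both controls. SLC16A6 (−1.14 ± 0.19), a carrier of the monocarboxylate transporter family, and CA14 (−0.95 ± 0.19), a carbonic anhydrase, fell from lower levels. Of 23 NRF2 and antioxidant genes, 4 fell and none rose: AKR1C3 (−0.77 ± 0.13), NQO1 (−0.52 ± 0.12), TXNIP (−0.48 ± 0.13) and AKR1C1 (−0.65 ± 0.20). The AKR1C genes are close copies, TXNIP is known for opposing thioredoxin rather than as an antioxidant, and without siNC replicate 1 the list had 2 falls.

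Antigen presentation genes leaned downward. Of 21 tested, 8 fell and 1 rose, and 19 of the 21 had a fold change below 0. The list median was −0.26, against 0.01 over all genes. CIITA, the master activator of MHC class II genes, fell to 1144 and 1363 normalized counts in siEZH2, against 2119 and 1898 in siNC (−0.68 ± 0.12, adjusted p = 3.3e-06). Its target HLA-DRA fell to 12348 and 11820 in siEZH2, against 17683 and 16295 in siNC (−0.49 ± 0.12, adjusted p = 0.00282). The class II gene HLA-DPA1 fell by 0.37 on the log2 scale. NLRC5, which activates class I genes, fell by 0.53, and the immunoproteasome subunits PSMB9 and PSMB8 by 0.86 and 0.41. PSMB9 had 307 and 282 in siEZH2, against 562 and 510 in siNC. HLA-F and the peptide-trimming enzyme ERAP1 were the other falls. The single rise was CD274, which encodes PD-L1 (0.48 ± 0.15), and no member rose without siNC replicate 1. The falls were less secure than the cell cycle changes: without siNC replicate 1 they numbered 2, and HLA-DRA and NLRC5 had adjusted p of 0.0835 and 0.147 there. HLA genes share long stretches of sequence, so reads may be split between them.

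The other PRC2 genes changed little beside EZH2. Of 13 tested core and accessory subunits, 2 fell, EZH2 and LCOR (−0.39 ± 0.13), and JARID2 rose (0.36 ± 0.12). LCOR shares a locus with the PRC2 accessory subunit PALI1, and JARID2 recruits the complex. Neither LCOR nor JARID2 kept its call without siNC replicate 1 (adjusted p = 0.504 and 0.227). SUZ12 had 1615 and 1243 normalized counts in siEZH2, against 1641 and 1570 in siNC (−0.18 ± 0.12, adjusted p = 0.455). EED had 763 and 693 in siEZH2, against 787 and 738 in siNC (−0.07 ± 0.13). The paralog EZH1, which can also methylate H3K27, had 1808 and 1916 in siEZH2, against 1731 and 1911 in siNC (0.03 ± 0.12). The siEZH2 and siNC values overlapped for SUZ12, EED and EZH1. Among 22 PRC1 subunits, SCML2 rose (0.81 ± 0.25) and PCGF1 fell (−0.41 ± 0.13), neither of which passed without siNC replicate 1.

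Genes that earlier work reported as silenced by PRC2 in cancer cells did not move in 1 direction. Of 40 listed, 32 were tested, 3 rose, 3 fell and 26 did not pass, and their median was −0.03. DKK1, a secreted WNT inhibitor, had 4303 and 3224 normalized counts in siEZH2, against 1786 and 2772 in siNC. The siEZH2 libraries were higher although both groups were spread out (SD 763 in siEZH2 and 697 in siNC). The SE, borrowed across genes, does not show that spread. The log2 fold change of DKK1 was 0.74 ± 0.12 (adjusted p = 2.16e-07). KLF4, a transcription factor of stem and epithelial cells, had 5417 and 5479 in siEZH2, against 3889 and 4013 in siNC (0.46 ± 0.12), and SOX9 rose by 0.39 ± 0.12. Without siNC replicate 1 no member of the list rose. The falls were TIMP2 and CIITA, given above, and the matricellular gene NOV (−0.42 ± 0.14). CDKN1C, a CDK inhibitor, had 874 and 996 in siEZH2, against 945 and 935 in siNC. Its log2 fold change was −0.01. CDH1 and RUNX3 stayed under the filter in this line.

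The HOX, imprinted, cancer-testis and neuronal lists gave no call above siNC. Of 39 HOX genes listed, 18 appeared in the table and 9 were tested, and none passed the test in either direction, with fold changes from −0.67 to 0.18. HOXB3, the lowest, had 37.3 and 57.9 normalized counts in siEZH2, against 74.6 and 74.3 in siNC (adjusted p = 0.067). Of 12 tested imprinted genes, SGCE alone changed and fell (−0.54 ± 0.13), with an adjusted p of 0.0646 without siNC replicate 1. Of 6 tested cancer-testis genes, MAEL alone passed the test, with 1.24 and 8.14 in siEZH2 and 16.3 and 15.6 in siNC, a level too low to give its size with confidence. No gene of the neuronal list passed among the 6 tested. NSD2 (0.42 ± 0.12), which methylates H3K36, and SMARCA4 (0.41 ± 0.12), the ATPase of a remodelling complex, rose among 20 enzymes that oppose or neighbour H3K27 methylation. Both lost their call without siNC replicate 1.

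**Figure D4:**
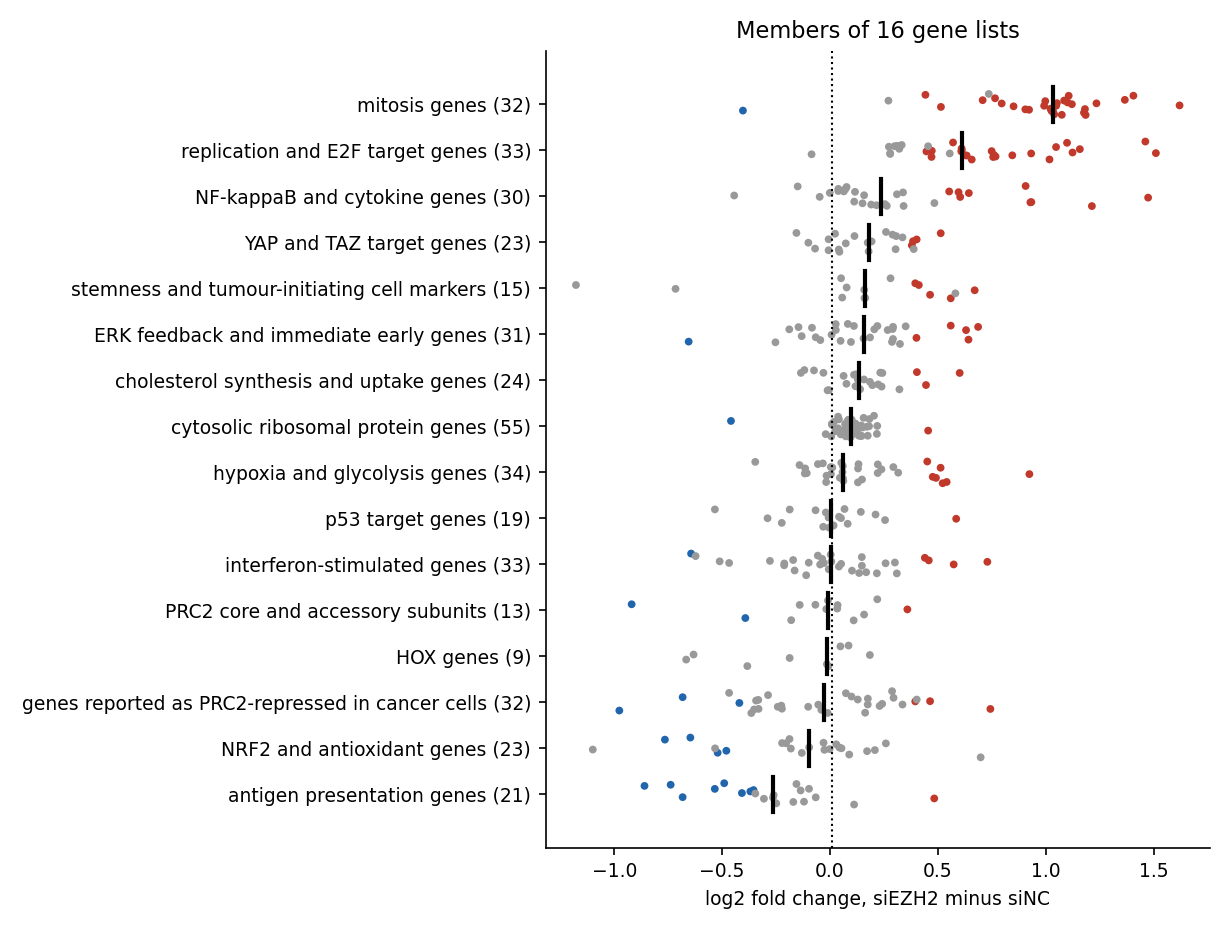
Log2 fold change (siEZH2 minus siNC) of the members tested of 16 gene lists, with the number tested in brackets; red points were called higher in siEZH2, blue called lower, grey not called, and the black bar is the list's median. The dotted line is the median of all genes, 0.01; the mitosis (1.03) and replication (0.61) medians lie to its right and the antigen presentation median (−0.26) to its left.

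Stress and growth signalling lists held smaller rises, against 3.9% of all genes called higher and 2.94% lower. Of 34 hypoxia and glycolysis genes, 7 rose and none fell, although the list median was 0.06. ADM, a vasoactive peptide induced by hypoxia, had 15826 and 13446 normalized counts in siEZH2, against 6581 and 8982 in siNC (0.92 ± 0.12, adjusted p = 1.72e-11). LDHA, which makes lactate, had 149739 and 136521 in siEZH2, against 91770 and 105311 in siNC (0.54 ± 0.14). The others were EGLN3, ANGPTL4, SLC2A3, HK2 and PFKFB3, between 0.45 and 0.52. The rises numbered 2 without siNC replicate 1. Of 31 ERK feedback and immediate early genes, 5 rose, namely SPRY2 (0.69 ± 0.12), EGR1 (0.64 ± 0.12), DUSP1 (0.63 ± 0.12), MYC (0.56 ± 0.12) and EREG (0.40 ± 0.12), and the ETS factor ETV5 fell (−0.66 ± 0.12). Of 23 YAP and TAZ targets 4 rose, among them CYR61 (0.51 ± 0.12) and CTGF (0.38 ± 0.12). Without siNC replicate 1 neither the ERK list nor the YAP and TAZ list had a rise left.

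Stemness markers and matrix genes showed a few rises each, against 3.9% of all genes called higher and 2.94% lower. Of 15 stemness and tumour-initiating markers tested, 5 rose and none fell: CXCR4, MYC, KLF4, SOX9 and PROCR. CXCR4, a chemokine receptor, had 4001 and 3666 normalized counts in siEZH2, against 2173 and 2665 in siNC (0.67 ± 0.12, adjusted p = 1.95e-06), and kept its call whichever library was left out. CD44 had 17841 and 16429 in siEZH2, against 12788 and 15540 in siNC (0.28 ± 0.12, adjusted p = 0.175). SOX2 had 121 and 122 in siEZH2, against 87.9 and 74.3 in siNC (adjusted p = 0.0592). Other members that did not pass leaned down. LGR5 had 37.3 and 47.0 in siEZH2, against 95.6 and 50.5 in siNC (−0.72, adjusted p = 0.0522). POU5F1, at low counts, changed by −1.18 (adjusted p = 0.104). The list had 1 rise without siNC replicate 1. Of 33 matrix genes, COL4A1 (0.64 ± 0.12), COL4A2 (0.52 ± 0.12) and TNC (0.58 ± 0.12) rose, and HSPG2 (−0.37 ± 0.12) and THBS2 (−0.40 ± 0.14) fell. HSPG2 had an adjusted p of 0.764 without siEZH2 replicate 1. COL4A1 and COL4A2 encode the paired chains of basement membrane collagen, and TNC encodes tenascin, a matrix protein of invasive tumours. Within TGF-beta and BMP genes, BMP2 (0.67 ± 0.12), INHBA (0.75 ± 0.16) and LTBP1 (0.48 ± 0.12) rose, each without a call when siNC replicate 1 was left out, while ID1, a target of BMP signalling, fell to 2081 and 2575 in siEZH2, against 3381 and 3449 in siNC (−0.56 ± 0.12, adjusted p = 0.000158).

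Cholesterol, stress and interferon lists held 3 or 4 rises each, against 3.9% of all genes called higher. Of 24 cholesterol genes 3 rose (12.5%), among them CYP51A1 (0.60 ± 0.18) and SQLE (0.40 ± 0.12), while HMGCS1 had 5636 and 5121 normalized counts in siEZH2, against 5120 and 5883 in siNC. None of the cholesterol rises passed without siNC replicate 1. Of 26 unfolded protein and amino acid stress genes 4 rose (15.4%), led by the serine synthesis enzyme PSAT1 (0.63 ± 0.13). Of 33 interferon-stimulated genes 4 rose (12.1%), led by IFIT1 (0.73 ± 0.13), 1 fell (XAF1, −0.64 ± 0.21) and the median was 0.00. Leaving out siNC replicate 1 left 1 rise in the interferon list and 1 in the stress list. DNMT1, the maintenance DNA methyltransferase, rose by 0.49 ± 0.12, and UHRF1, which guides it to replicated DNA, by 0.61 ± 0.14. DNMT1 had 5270 and 5429 in siEZH2, against 3775 and 3868 in siNC. DNMT1 did not pass without siNC replicate 1 (adjusted p = 0.076), nor UHRF1 without siNC replicate 2 (0.0513).

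Receptor, adhesion and chaperone genes gave scattered calls, against 3.9% of all genes called higher and 2.94% lower. Several of these lists lie near those shares. Of 25 WNT genes, DKK1 and the receptor gene FZD4 (0.53 ± 0.13) rose and ROR1, a receptor tyrosine kinase of the WNT5A branch, fell to 489 and 548 normalized counts in siEZH2, against 1003 and 783 in siNC (−0.77 ± 0.13). Of 17 NOTCH genes, NOTCH3 fell (−0.73 ± 0.19) and the coactivator MAML1 rose (0.36 ± 0.12). Of 16 integrin chains, ITGA1 (−0.46 ± 0.12) and ITGB3 (−0.49 ± 0.15) fell and none rose, and of 17 epithelial genes the mucin MUC1 (−0.64 ± 0.13) and the junction gene TJP3 (−0.82 ± 0.23) fell. Of 17 heat shock and chaperone genes, HSPB1 (0.49 ± 0.12), HSPA8 (0.46 ± 0.13) and HSPH1 (0.36 ± 0.12) rose and none fell. HSPB1 varied between the siEZH2 libraries, with 2796 and 3999 there, against 2378 and 2368 in siNC. Of 15 steroid and aryl hydrocarbon receptor targets, SGK1 and DUSP1 rose and NQO1 fell. Of 18 fatty acid synthesis genes, SCD5 (0.45 ± 0.12) rose and GPAM (−0.45 ± 0.14) fell, and of 19 RNA interference and double-stranded RNA sensing genes DICER1 (−0.52 ± 0.12) and TLR3 (−0.86 ± 0.22) fell. Without siNC replicate 1, FZD4, ROR1, MAML1, ITGA1, MUC1, TJP3, HSPB1, SCD5, GPAM, DICER1, TLR3, DUSP1 and NQO1 did not keep their calls, and NOTCH3, ITGB3, HSPA8, HSPH1 and SGK1 each lost theirs without 1 other library.

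Of 14 luminal markers, TFF3 (−0.50 ± 0.14) and SPDEF (−0.38 ± 0.12) fell, and of 13 basal markers TP63 (−1.17 ± 0.25) and KRT81 (−0.51 ± 0.15) fell and CAV2 (0.45 ± 0.12) rose. TP63 had 39.8 and 30.8 normalized counts in siEZH2, against 91.8 and 69.7 in siNC. All 5 lost their call without siNC replicate 1. Of 13 tested mesenchymal genes, PRRX1 alone rose (0.63 ± 0.18), with an adjusted p of 0.247 without siNC replicate 2. Of 55 ribosomal protein genes, RPLP0 rose (0.45) and RPL15 fell (−0.46). A fold change above 0 was seen in 53 of the 55 (median 0.10, against 0.01 over all genes). No mitochondrial genome transcript passed among 15 tested, and 1 of 33 nuclear respiratory chain genes fell. The part of library composition in the results was not tested.

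Genes not labelled protein-coding fell more often than they rose, but were called less often than genes with that label in both directions. The class is not strictly non-coding, since it holds UHRF1, labelled a processed transcript and called higher above. Of 2604 tested, 21 were called higher (0.81%) and 58 lower (2.23%), against 596 (4.51%) and 407 (3.08%) of 13219 protein-coding genes. Antisense genes gave 3 rises (0.36%) and 19 falls (2.31%) among 823 tested. Sense-overlapping genes gave 0 rises and 8 falls (13.8%) among 58. The falls included HCP5, a gene within the MHC region, which fell to 226 and 200 normalized counts in siEZH2, against 422 and 415 in siNC (−0.97 ± 0.15, adjusted p = 5.93e-08), and the nuclear RNA MALAT1 (−0.56). The highest fold change of all genes belonged to an antisense gene listed as CTD-2510F5.4, named PRR11-AS1 in the reference gene names and picked here after its values were seen. It had 117 and 79.6 in siEZH2, against 24.9 and 28.4 in siNC (1.82 ± 0.25), and PRR11, its partner by name, had 576 and 581 in siEZH2, against 209 and 231 in siNC (1.39 ± 0.15). Libraries of this kit carry no strand information, so reads of such genes cannot be told apart from those of the genes they overlap.

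The other siRNA experiment of the series silenced SCIRT in the same line, under the same labelled sphere conditions for 48 h. It had 3 libraries each of 2 siRNAs and of its own siNC. Normalized counts of the controls differed between the experiments, but the experiments were scaled separately and share no common scale. The siNC libraries there held 60023399, 57218620 and 62218847 reads, divided by size factors of 1.11, 1.09 and 1.19. Those here held 34296110 and 37557787 reads, with size factors of 1.05 and 1.09. MKI67 had 726 and 560 normalized counts in siNC here, against 16460, 15808 and 19797 in siNC there. The ribosomal gene RPS24 had 15687 and 16346 here, against 34395, 30957 and 37467 there. SLC2A3 was instead higher here, at 15395 and 19098, against 8982, 10032 and 7795 there. The difference between the siEZH2 response and the mean siSCIRT response was fitted over 13 libraries and 15369 genes, and was called higher for 1308 genes (8.51%) and lower for 1001 (6.51%). Without siNC replicate 1 of the siEZH2 experiment the lower count was 544, and without siEZH2 replicate 1 the higher count was 872. The siSCIRT response itself had 1153 genes called higher (7.5%) and 1202 lower (7.82%). Mitosis genes separated the siRNAs most. Their median log2 fold change was 1.03 after siEZH2 and −0.86 after siSCIRT, 31 of 32 fell after siSCIRT, and the difference was called higher after siEZH2 for 31 and lower for 1. Replication genes had medians of 0.61 after siEZH2 and −0.56 after siSCIRT, with the difference called higher for 32 of 33. MKI67 changed by 1.12 after siEZH2 and −0.93 ± 0.10 after siSCIRT, a difference of 2.05 ± 0.17 (adjusted p = 2.61e-07).

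EZH2 transcript itself fell after both, by 0.92 after siEZH2 and by 0.51 ± 0.07 after siSCIRT, and the difference was −0.41 ± 0.12 (adjusted p = 0.0311). The cytokine gene CSF2 changed by 1.47 after siEZH2 and −0.03 ± 0.11 after siSCIRT (difference 1.51 ± 0.19, adjusted p = 1.7e-05), and LIPA by −1.25 after siEZH2 and −0.03 ± 0.07 after siSCIRT (difference −1.22 ± 0.12, adjusted p = 5.33e-07). CIITA changed by −0.68 after siEZH2 and 0.42 ± 0.09 after siSCIRT (difference −1.11 ± 0.15). Of 24 cholesterol genes, 17 fell after siSCIRT, and the difference was called higher after siEZH2 for 14. The siSCIRT libraries were normalized in a table of their own. The part of that, and of the unlike control levels, in these differences was not tested.

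**Figure D5:**
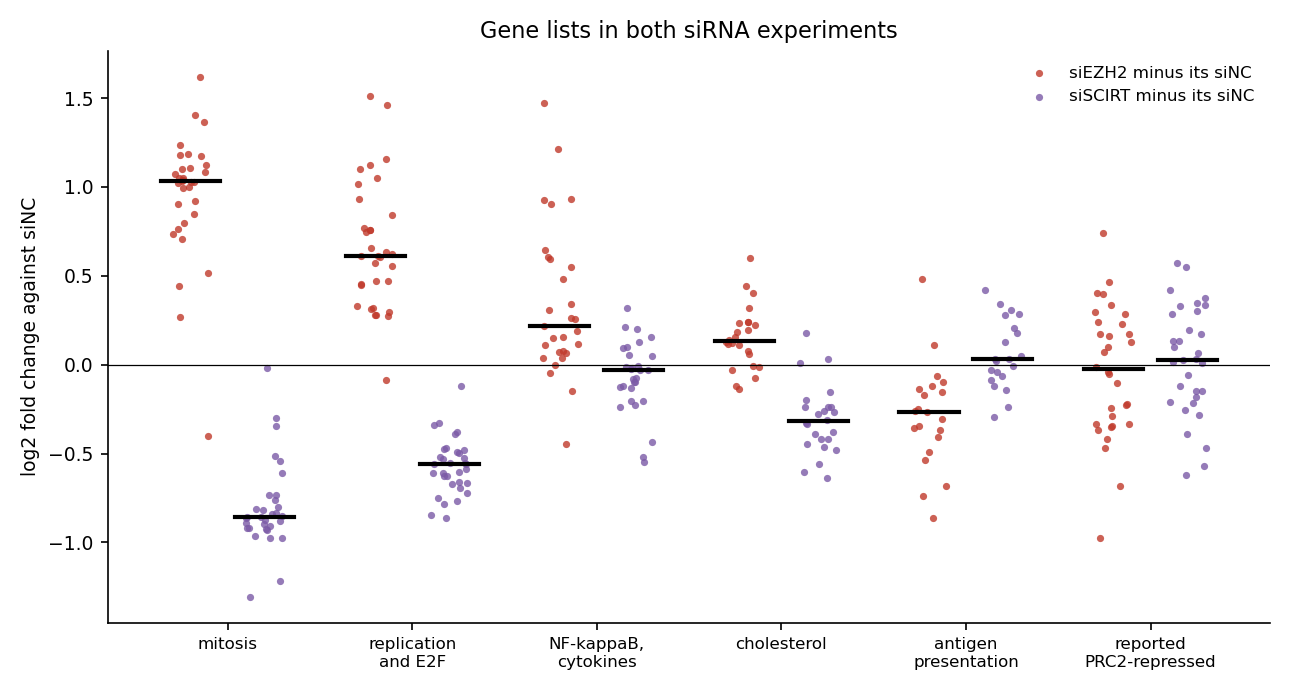
Log2 fold change of the members of 6 gene lists after siEZH2 (red, left of each pair) and after siSCIRT (purple, mean of 2 siRNAs), each against the siNC of its own experiment; black bars are list medians. The mitosis and replication medians are 1.03 and 0.61 after siEZH2 and −0.86 and −0.56 after siSCIRT.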

How the data were processed

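Of the series' 3 tables, 2 were used. The labels name TRI Reagent and the TruSeq RNA v2 kit, and the submitters' processing notes list hg19, TopHat2, CASAVA 1.4 and Partek with no role. The authors' siEZH2 values are a linear signal, reads per gene over a size factor (normalized counts). The siSCIRT values the authors deposited are variance-stabilized on the log2 scale and were inverted to normalized counts. Whole reads came out for 100% of values, within 0.05 reads.

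Groups came from sample titles, with siSCIRT 1 columns assigned by inference. Log2(normalized count + 1) of genes with a mean of at least 10 was fitted with limma 3.58.1 in R 4.3.3 (eBayes, trend and robust, two-sided). Alternatives were quantile and TMM scaling, another pseudocount (8), filters (none, or 50), eBayes without trend or robust, a replicate block, edgeR 4.0.16, DESeq2 1.42.0, each library left out and, added after seeing the data, eBayes with trend but not robust. The fit was tested on simulated counts. The members and the 44 gene lists were chosen with earlier results of these data known. Genes named by rule were the 15 largest rises and falls (higher group's mean at least 100, no overlap, proper symbol), the 6 each way with the smallest adjusted p, EZH2, SCIRT, PRC2 core subunits, up to 4 members per list by adjusted p, and members needed to describe a list. Replicate numbers did not pair the siEZH2 and siNC libraries (correlation of their deviations from group means −0.0854). Pairing by replicate number was not checked in the siSCIRT experiment, and the main fit of the difference had no replicate block.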

Additional observations from a re-analysis of the deposited data

How the results depend on the processing

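No called result changed direction in any of the alternatives run. EZH2 was lower in siEZH2 in all of them, and lost its call only without trend or robust in eBayes (log2 fold change −0.92, adjusted p = 0.0652), where 0 genes were called higher or lower. Adding the trend but not robust estimation changed no call count beyond 1.5 times. With the replicate number as a block, 333 genes were called higher, 199 lower and 25 at least 2-fold lower, and the difference from siSCIRT was called higher for 1969 and lower for 1606. DESeq2 called 250 lower, and 16 at least 2-fold lower. That last count was 38 after quantile normalization and 17 with a pseudocount of 8 or with a mean of at least 50, which tests fewer low genes. Leaving out each library gave 228 to 539 called higher, 114 to 501 lower, 72 to 130 at least 2-fold higher and 16 to 129 at least 2-fold lower, and for the difference from siSCIRT 872 to 1396 higher and 544 to 1167 lower. Among the libraries left out, siNC replicate 1 gave the lowest counts for siEZH2 against siNC, where a lone control is assumed to vary like the other group, and 64 of the 129 named genes lost their call there. The cause was not tested beyond this. The share of windows with TTTGAA among genes called higher was 31.3% without siNC replicate 1. With 2 libraries a group, small changes and genes under a mean of 10 could not be resolved.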

Other observations

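Gene families defined by symbol prefix, chosen after the values were seen, overlap the genes given above, among them KIF20A, KIF4A, CDK6, COL4A1 and COL4A2. Of all genes tested, 3.9% were called higher and 2.94% lower. Of 30 tested KIF genes, which encode kinesin motors, 11 rose and 1 fell in siEZH2 spheres. Among 27 genes with the CDK prefix, which include cyclin-dependent kinases and their inhibitors, 5 rose and none fell. Collagen genes gave 3 rises and no fall among 31. Of 12 tested replication-dependent histone genes, 3 fell (HIST1H2BD, HIST2H2BE and HIST1H2AC) and HIST1H2BK rose, with a median of −0.18, and none fell without siNC replicate 2. These 4 transcripts are known to be polyadenylated in part, most members of that class are not kept by poly(A) selection, and their reads may be split between copies.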
